A study of Mus musculus with 2 samples.

Results

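The 10 genes described here encode products that mark Paneth cells of the adult mouse small intestine, measured at embryonic day 14.5, before crypts form. They are the alpha-defensin genes Defa24, Defa17, Defa5 and Defa30, the other secreted antimicrobial factors Lyz1, Ang4, Itln1 and Pla2g2a, and the proteases Mmp7 and Habp2. They were taken by name from a list, and all 10 were present among the 43346 genes measured. Total RNA of the intestine of B6NCrl mouse embryos was sequenced as 2 libraries, replicates 1 and 2, which form 1 group with no treatment and no altered allele. Per the labels, 1 pup gave the intestine for each library, on day 17 of a month for replicate 1 and on day 15 for replicate 2, although the sex is given as pooled male and female. Both libraries carry 1 donor record, so nothing in the labels beyond the collection day shows whether the libraries came from separate embryos. Their spread may be partly technical. With 1 group no contrast between conditions can be tested, and the values below describe levels and the spread between the libraries.

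Paneth cells sit at the base of the crypts of the small intestine, between the stem cells, and release granules of antimicrobial proteins into the crypt lumen. In the mouse, crypts and mature Paneth cells appear only after birth. The alpha-defensins of the mouse intestine, also called cryptdins, are small cationic peptides made as inactive precursors and cut to their active form by matrilysin, the product of Mmp7. They are encoded by many near-identical genes in 1 cluster, so short reads cannot always be assigned to a single copy.

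The coding sequences of the 4 member alpha-defensin genes are shown because their likeness sets how far each level can be read. All 4 genes have 2 exons on the plus strand of chromosome 8, and each coding sequence is 279 bases long without its stop codon. The sequences are those of GENCODE M21 transcripts on GRCm38, 5′ to 3′, and capitals mark the bases that differ from Defa24.
Defa24: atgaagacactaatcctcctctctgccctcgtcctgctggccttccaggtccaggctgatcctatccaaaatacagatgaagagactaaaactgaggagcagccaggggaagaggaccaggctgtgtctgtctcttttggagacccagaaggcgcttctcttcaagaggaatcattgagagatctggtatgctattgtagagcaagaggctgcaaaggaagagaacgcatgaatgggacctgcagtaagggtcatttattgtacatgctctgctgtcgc
Defa30: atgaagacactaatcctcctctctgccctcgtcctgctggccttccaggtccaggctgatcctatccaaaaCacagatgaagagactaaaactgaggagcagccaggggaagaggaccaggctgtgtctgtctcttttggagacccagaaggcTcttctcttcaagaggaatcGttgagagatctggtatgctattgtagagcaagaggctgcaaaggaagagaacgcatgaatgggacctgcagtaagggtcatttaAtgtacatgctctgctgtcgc
Defa17: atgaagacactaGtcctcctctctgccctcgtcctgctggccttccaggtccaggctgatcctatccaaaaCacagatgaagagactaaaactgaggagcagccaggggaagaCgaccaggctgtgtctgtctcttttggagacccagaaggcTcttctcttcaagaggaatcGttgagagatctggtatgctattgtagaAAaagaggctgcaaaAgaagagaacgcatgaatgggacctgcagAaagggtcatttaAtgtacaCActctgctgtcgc
Defa5: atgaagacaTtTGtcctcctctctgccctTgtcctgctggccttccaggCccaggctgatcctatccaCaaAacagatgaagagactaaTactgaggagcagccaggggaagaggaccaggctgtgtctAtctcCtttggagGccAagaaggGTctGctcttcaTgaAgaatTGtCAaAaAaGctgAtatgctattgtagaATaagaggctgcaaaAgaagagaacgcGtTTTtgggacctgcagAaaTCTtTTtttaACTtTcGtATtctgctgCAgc
Defa24 lies at chr8:21734494-21735471, Defa30 at chr8:21134642-21135598, Defa17 at chr8:21655780-21656735 and Defa5 at chr8:21297439-21298375. Defa30 differed from Defa24 at 4 bases (98.6% identity), Defa17 at 12 bases (95.7%) and Defa5 at 47 bases (83.2%). Defa17 and a gene outside the 10, Defa3 at chr8:21287409-21288377, had the same coding sequence with 0 differences, although they start 368.4 kb apart.

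Whether a read can tell these genes from others was described by cutting transcripts into windows of 100 bases, the fragment or read length that the deposited effective lengths imply. Only measured transcripts with a sequence in GENCODE M21 were searched. Of the 320 windows of Defa24, all 320 occurred in no other gene among 101510 transcripts. For Defa30 this held for 298 of 299 windows. Defa17 had 28 such windows of 298 (9.40%) and shared the other 270 with Defa3. Defa5 had 33 of 277 (11.9%), and its main partner was Defa34, with 207 shared windows. The lysozyme gene Lyz1 had 1140 of 1164 (97.9%) and shared 24 windows with Lyz2, the macrophage lysozyme gene. All windows of the other 5 members, Ang4, Mmp7, Habp2, Itln1 and Pla2g2a, were their own, so with Defa24 they make 6 members with no shared window. The windows place the risk of shared reads on Defa17 and Defa5 and leave the level of Defa24 free of it among the transcripts searched.

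**Figure D1:**
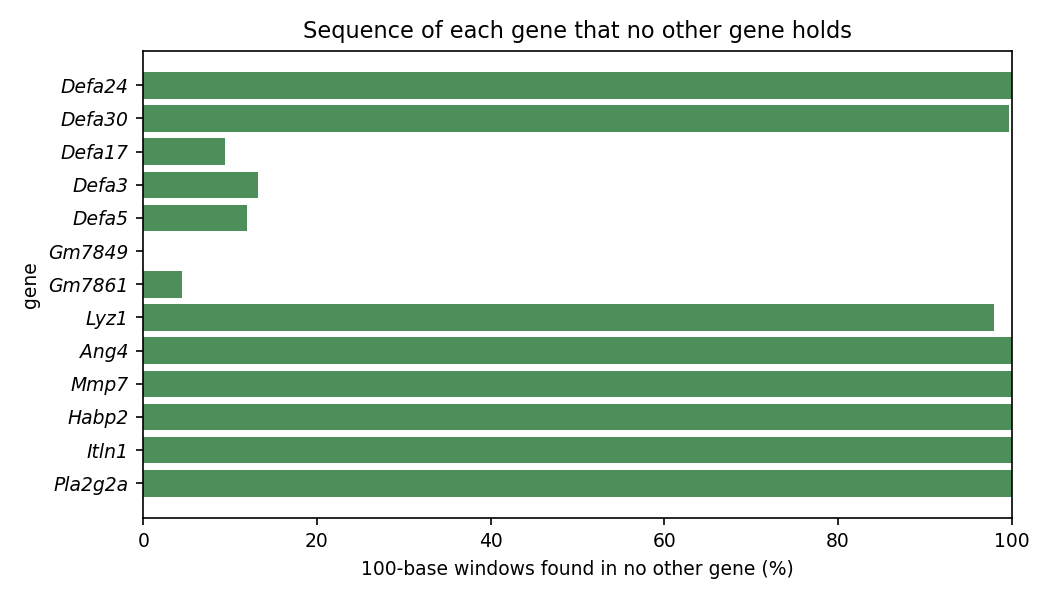
Share of the 100-base windows of each gene that no other gene holds among the transcripts searched, in percent. Shown are the 10 members, Defa3 and the defensin-like pair Gm7849 and Gm7861. Defa17 (9.40%) and Defa5 (11.9%) stand far below Defa24 (100%), Defa30 (99.7%) and Lyz1 (97.9%).

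The libraries held 32938592 and 32371363 estimated counts in genes for replicates 1 and 2. Spike-in RNA took 9.77% of TPM (transcript abundance per unit of length, as a share of the library) in replicate 1 and 10.4% in replicate 2. The deposited values used for each gene are TPM, its posterior mean, which starts from a prior and is above 0 even without reads, and an interval around that mean whose level the files do not state. A gene was called detected at a TPM of at least 1 in both libraries, and a count of 3 was taken as the floor.

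Of the 10 members, 5 were detected at embryonic day 14.5, against 61.3% of 21474 protein-coding genes and 34.2% of all genes. In order of mean TPM they were Habp2, Defa24, Defa17, Lyz1 and Ang4. The other 5 were Mmp7, with 8 and 15 counts, Defa30 and Itln1, with 1 count in each library, and Defa5 and Pla2g2a, with 0 counts in both. Together the members summed to 48.4 TPM in replicate 1 and 54.6 TPM in replicate 2, or 0.00536% and 0.00609% of the TPM of all genes. Habp2 alone was 45.9% and 38.5% of these sums. The median member was at 0.885 TPM in replicate 1 and 1.06 TPM in replicate 2, against 4.82 and 4.87 TPM for protein-coding genes. In whole tissue, fewer cells of a type and less RNA per cell cannot be told apart.

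**Figure D2:**
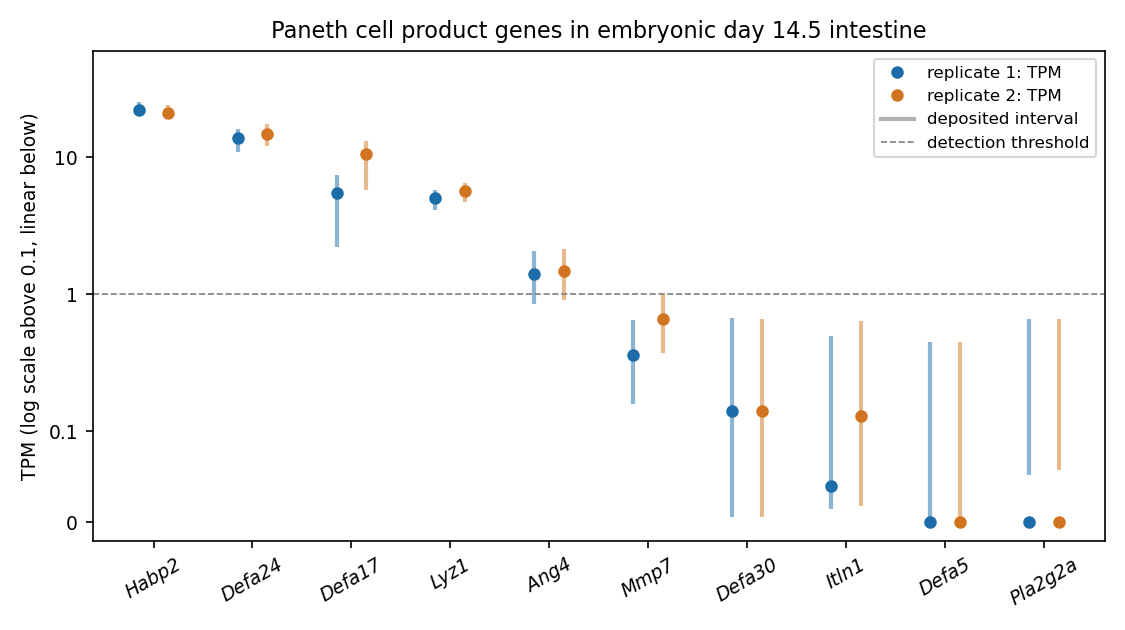
TPM of the 10 members in each library (points, log scale above 0.1) with the deposited interval (bars) and the detection threshold of 1 TPM (dashed line). Habp2, Defa24, Defa17, Lyz1 and Ang4 lie above the line in both libraries. The intervals of Defa17 are wide for its level. The interval of Pla2g2a, which goes with its posterior mean and not with its TPM, lies above its TPM of 0.

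Among the alpha-defensins, Defa24 was the highest. It had 13.7 TPM in replicate 1 from 102 counts and 14.9 TPM in replicate 2 from 112 counts, a mean of 14.3 ± 0.834 TPM (SD, n = 2). The posterior mean was 13.5 and 14.7 TPM, and the intervals ran from 10.9 to 16.2 and from 12.0 to 17.4 TPM. These widths, 38.7% and 36.9% of the posterior mean, were below the medians of 49.7% and 49.3% for 2032 genes with 50 to 150 counts on average. The posterior SD of the count was 0 in both libraries, so no read of Defa24 was divided with another gene. A defensin with sequence of its own was thus measured at or above the level of 64.8% of protein-coding genes, and the libraries differed by -0.11 in log2(TPM + 1), replicate 1 minus replicate 2.

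Defa17 had 5.48 TPM in replicate 1 from an estimated 37.95 counts, and 10.6 TPM in replicate 2 from 74.3 counts. The mean was 8.05 ± 3.63 TPM (SD, n = 2), and the difference of -0.84 in log2(TPM + 1) was the largest among the members. Across 8166 genes with a mean of 5 to 50 TPM the median absolute difference was 0.121 and the 95th percentile 0.410, so Defa17 was above the 95th percentile of its class. That class was set by TPM and not by counts, so it may hold genes with less counting error than Defa17. The posterior mean was 4.88 and 9.69 TPM, with intervals from 2.20 to 7.43 and from 5.76 to 13.3 TPM that overlap between the libraries. Their widths were 107% and 77.5% of the posterior mean, wider than those of Defa24. They were also wider than the medians of 49.7% and 49.3% for genes with 50 to 150 counts on average. The 37.95 counts of Defa17 in replicate 1 are below that range, and the part of counting error in its widths was not tested.

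The count of Defa17 was estimated together with that of Defa3. Defa3 had 1.25 TPM in replicate 1 and 1.46 TPM in replicate 2, from an estimated 9.05 and 10.7 counts, and its intervals reached from 0.0938 to 4.13 and from 0.0546 to 5.39 TPM. The posterior SD of the count was 7.43 in replicate 1 and 10.96 in replicate 2 for both genes, the same value to the digit given. Their summed count was a whole number, 47 in replicate 1 and 85 in replicate 2, of which Defa17 was given 80.7% and 87.4%. The reads of the pair are therefore known better than their division. Taken as 1 unit, the pair had 6.73 TPM in replicate 1 and 12.1 TPM in replicate 2, a difference of -0.76, so the gap between the libraries remained when the division was set aside. The pair stood at 0.490 of the TPM of Defa24 in replicate 1 and 0.810 in replicate 2.

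Defa30 and Defa5 were at or near no reads. Defa30 had 1 count and 0.14 TPM in each library, below the floor of 3 counts, which is 0.432 TPM in replicate 1 and 0.427 TPM in replicate 2 for a transcript of its length. Nearly all of its windows are its own, so few of its reads would match another gene exactly. Defa5 had 0 counts in both libraries, which allows up to 0.466 TPM in replicate 1 and 0.461 TPM in replicate 2, and its posterior mean of 0.15 TPM comes without reads. Defa34, which shares most windows with Defa5, also had 0 counts in both libraries.

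The annotated alpha-defensin family held 39 genes by symbol, 22 protein-coding genes and 17 pseudogenes. In each library 7 of them had any count and 32 had none, and 0 of the pseudogenes had a count. The family summed to 154 counts in replicate 1 and 200 counts in replicate 2. Defa24 took 66.2% and 56.0% of these, and the pair of Defa17 and Defa3 took 30.5% and 42.5%. Defa24, Defa17 and Defa3 together were 96.8% and 98.5%, and they were the 3 family genes detected. The remaining family genes shared 5 counts in replicate 1 and 3 counts in replicate 2. Besides Defa30 they were Defa23, with 3 and 0 counts, Defa21, with 0 and 1, and Defa20 and Defa32, with 0.5 each in both libraries. Most counts under the family's symbols thus lay on Defa24 and on the pair of Defa17 and Defa3, whose division is poorly known, and the low counts of the others cannot be ranked.

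**Figure D3:**
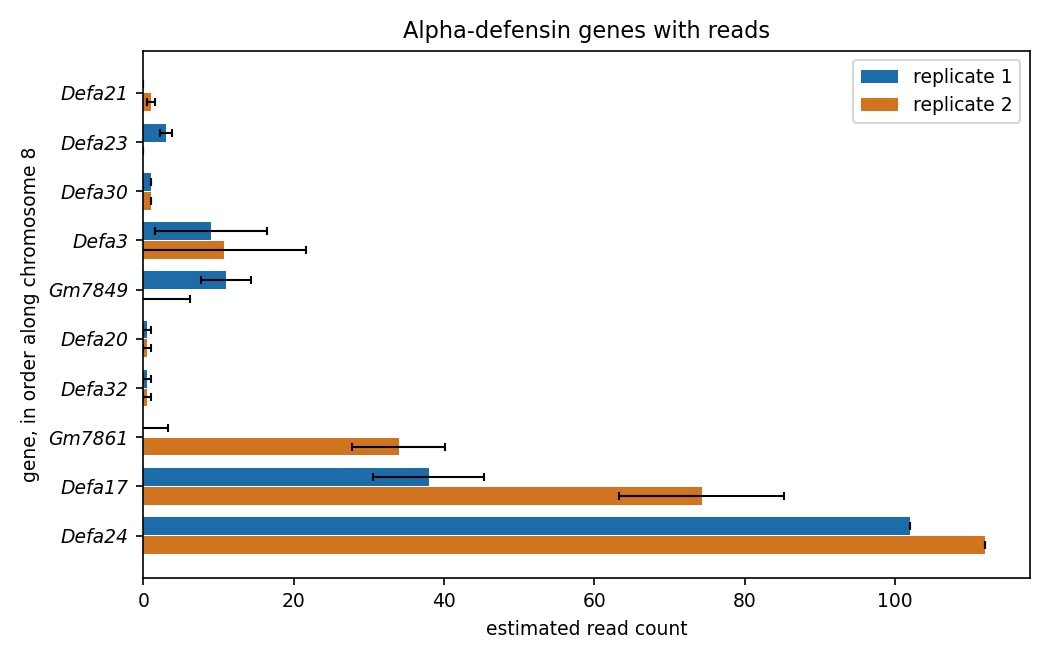
Estimated read counts of the alpha-defensin genes with reads, in their order along chromosome 8, for replicate 1 (upper bar) and replicate 2 (lower bar), with the posterior SD of the count as error bars cut off at 0. Defa24 has 102 and 112 counts with a posterior SD of 0. Defa17 and Defa3 have error bars of the same length, and the estimates for Gm7849 and Gm7861 sit on 1 gene in each library.

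The cluster on chromosome 8 also holds defensin genes under other symbols. In the interval chr8:21025545-21750000, 62 genes were measured, 35 of the family and 27 others, of which 12 had a count in either library. Gm7849 and Gm7861, which RefSeq names Defa42 and Defa43, were among the 4 others with counts and were singled out after their values were seen. Gm7849 had 11 counts in replicate 1 and 0 in replicate 2, and Gm7861 had 0 in replicate 1 and 34 in replicate 2. All 389 windows of Gm7849 occur in Gm7861, and the posterior SD of the count was 3.33 in replicate 1 and 6.19 in replicate 2 for both. The deposited intervals of each gene overlap between the libraries. Because of the shared windows and the equal posterior SDs, neither count can be read as that of 1 gene. Their sum was 11 counts and 1.22 TPM in replicate 1, against 34 counts and 3.56 TPM in replicate 2. AY761184 had 1 and 2 counts and Gm15303 had 0 and 1.

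Lyz1 encodes lysozyme P, the Paneth cell form of this wall-cleaving enzyme, and lies on the minus strand at chr10:117287797-117292868. It had 5.03 TPM in replicate 1 from an estimated 136.1 counts and 5.67 TPM in replicate 2 from 155.1 counts, a mean of 5.35 ± 0.453 TPM (SD, n = 2). The intervals were 4.12 to 5.79 and 4.71 to 6.46 TPM, and the difference was -0.15. Its level was at or above that of 51.0% of protein-coding genes. Lyz2, the lysozyme gene of macrophages, was at 49.8 TPM in replicate 1 and 56.8 TPM in replicate 2, so Lyz1 stood at 10.1% and 9.98% of it. The coding sequences of Lyz1 and Lyz2 differed at 22 of 444 bases (95.1% identity). The posterior SD of the Lyz1 count was 1.42 in replicate 1 and 1.40 in replicate 2, small beside the Lyz1 count, and it had the same values for Lyz2. All 9 macrophage markers were detected, with sums of 258.9 TPM in replicate 1 and 276.6 TPM in replicate 2, led by Lyz2, C1qb and Tyrobp. The part of macrophages in the Lyz1 level was not tested.

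Ang4 encodes an antimicrobial ribonuclease of the angiogenin family and lies at chr14:51763878-51773590. It had 1.41 TPM in replicate 1 from 20 counts and 1.47 TPM in replicate 2 from 21 counts, a mean of 1.44 ± 0.0424 TPM (SD, n = 2). The lower bounds of its intervals, 0.853 and 0.901 TPM, were under the detection threshold, so its call rests on few reads. The difference between the libraries was -0.04. Its relative Ang, the angiogenin gene itself, was at 24.0 TPM in replicate 1 and 27.3 TPM in replicate 2, and Ang4 was at 5.88% and 5.39% of it. Other relatives, Ang2, Ang5 and Ang6, had 0 counts in both libraries.

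Itln1 encodes intelectin, a lectin that binds microbial glycans, and lies at chr1:171518122-171535294. It had 1 count in each library and 0.04 TPM in replicate 1 and 0.13 TPM in replicate 2. The read was placed on a different one of its 2 transcripts in each library, and the transcripts differ in effective length. The TPM of Itln1 therefore differed between the libraries at equal counts, and both values are below the floor. Pla2g2a, at chr4:138831857-138835186, encodes a secreted phospholipase that attacks bacterial membranes. The C57BL/6 allele carries a disrupting frameshift, and the annotation lists the gene as a polymorphic pseudogene. It had 0 counts in both libraries, which allows up to 0.235 TPM in replicate 1 and 0.233 TPM in replicate 2, below its posterior mean of 0.33 TPM in each.

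The proteases differed in level. Mmp7, which cuts the defensin precursors, lies at chr9:7692090-7699585 and had 0.36 TPM from 8 counts in replicate 1 and 0.66 TPM from 15 counts in replicate 2. Its mean was 0.510 ± 0.212 TPM (SD, n = 2) and its difference -0.29. With 0.1 added to TPM in place of 1, the difference of Mmp7 was -0.72, against -0.94 for Defa17. The intervals, 0.158 to 0.649 and 0.371 to 1.03 TPM, overlap between the libraries. Reads of Mmp7 were thus present above the floor in both libraries, at a level under the threshold and below those of Defa24 and Defa17.

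Habp2, at chr19:56287137-56320822, encodes a hyaluronan-binding serine protease best known as a plasma protein made by the liver. It was the highest member, with 22.2 TPM in replicate 1 from 1007 counts and 21.02 TPM in replicate 2 from 1080 counts, a mean of 21.6 ± 0.827 TPM (SD, n = 2). The difference was 0.07, and the intervals were 20.0 to 25.4 and 20.1 to 24.3 TPM. Its level was at or above that of 72.1% of protein-coding genes. Of 10 hepatocyte markers 4 were detected, with sums of 176.1 TPM in replicate 1 and 170.6 TPM in replicate 2, led by Trf, Serpina1b and Ttr. The fourth detected was Afp, the alpha-fetoprotein gene of fetal liver, with 24.9 TPM in replicate 1 and 17.3 TPM in replicate 2. The other 6, Fgb, Alb, Ahsg, Fga, F2 and Apoh, were under 1 TPM in both libraries, and the albumin gene Alb had 0.82 and 0.13 TPM. The part of liver cells in the Habp2 level was not tested.

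Habp2 was the one detected member with more than 1 annotated transcript, and 4 of its 7 transcripts received counts. The transcript Habp2-201, of 2314 bases, held 73.4% of the gene's TPM in replicate 1 and 87.5% in replicate 2. Habp2-202, of 2815 bases, held 8.16% and 8.08%. The short Habp2-203, of 661 bases, held 16.5% in replicate 1 and 1.09% in replicate 2, from an estimated 47.9 and 3.02 counts. Its deposited intervals, 0.661 to 6.22 TPM in replicate 1 and up to 3.21 TPM in replicate 2, overlap. The TPM of each library, 3.67 in replicate 1 and 0.23 in replicate 2, lies outside the interval of the other. Whether the gap exceeds the estimation error was not tested. The main transcript was the same in both libraries.

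**Figure D4:**
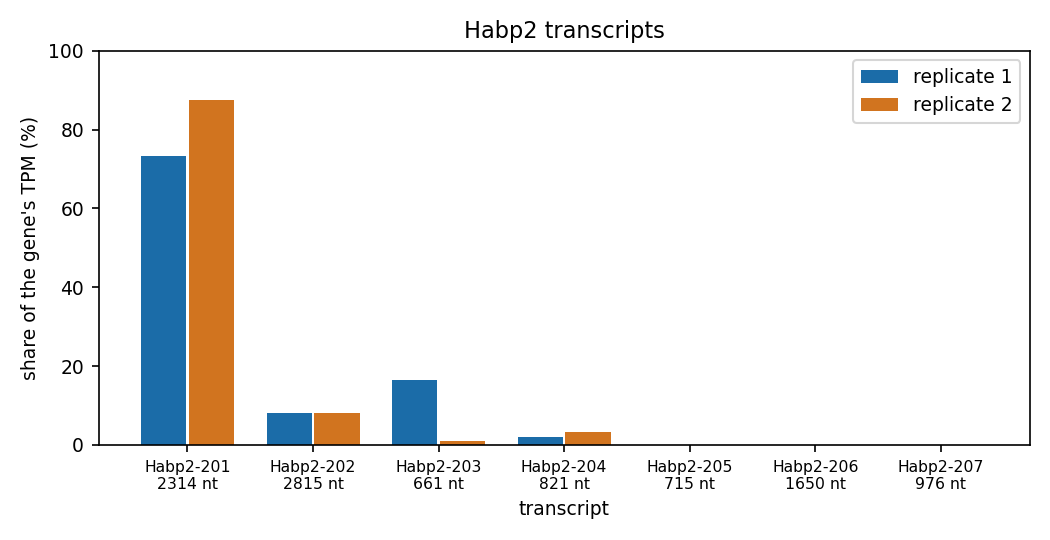
Share of the TPM of Habp2 assigned to each of its 7 annotated transcripts, in percent, for replicate 1 (left bar) and replicate 2 (right bar), with transcript lengths under the names. Habp2-201 holds 73.4% and 87.5%, and Habp2-203 holds 16.5% and 1.09%.

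In the order of levels, neighbours were called separate only where both libraries of one lay above both of the other and the deposited intervals did not overlap within either library. Habp2 was separate from Defa24, and Lyz1 was separate from Ang4. Defa24 and Defa17, Defa17 and Lyz1, and Ang4 and Mmp7 were not separate, nor were Mmp7 and any of the neighbours below it. Genes further apart in the order were not compared by this rule, so the neighbours that were not separate do not form groups of equal level.

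Between the libraries a gene was called different when its mean TPM was at least 5, log2(TPM + 1) differed by at least 1 and the deposited intervals did not overlap. The 4 members at that level, Habp2, Defa24, Defa17 and Lyz1, gave 0 calls, against 56 of 11324 genes (0.495%), of which 51 (0.45%) were lower in replicate 1 and 5 (0.0442%) were higher in replicate 1. Of the 10 members, 1 was higher in replicate 1, 6 were higher in replicate 2 and 3 were equal, with a median difference of -0.07. Among the 15411 genes whose TPM averaged 1 or more, 59.8% were higher in replicate 1 and 40.0% in replicate 2, with a median difference of 0.04. The members were counted without this limit. Mmp7, Defa30, Itln1, Defa5 and Pla2g2a averaged less than 1 TPM, so the 2 sets are unlike. Itln1 was among the 6 although it had 1 count in each library. The differences of the members other than Defa17 and Mmp7 were at most 0.15 in size.

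Markers of pancreas acinar cells, which make digestive enzymes, set the libraries apart. The 11 markers summed to 9.66 TPM in replicate 1 and 1135.4 TPM in replicate 2, a ratio of 117.5 for replicate 2 over replicate 1. In replicate 1 only 4 were detected, and Ctrb1, Prss2, Amy2a5, Ptf1a and Try4 had 0 counts, while 9 were detected in replicate 2. Among those past the rule were Pnliprp1, Ctrb1, Cpa1, Amy2a5, Cel, Cela1 and Prss2. Goblet cell markers, for the mucus-secreting cells, were also higher in replicate 2 for 7 of 8 genes. Their sums were 317.1 TPM in replicate 1 and 485.7 TPM in replicate 2, with 5 of 8 detected, and the highest were Tff3, with 248.6 and 333.7 TPM, Spink4, with 26.7 and 60.01 TPM, and Agr2. Spink4 and Fcgbp, with 12.6 and 36.3 TPM, passed the rule. In other lists, 6 of 7 epithelial, 4 of 6 enterocyte and 6 of 9 macrophage markers were higher in replicate 2. So were 3 of 6 mesothelial and 2 of 10 hepatocyte markers. Defa17 was higher in the same library, and the part of any cell type in that difference was not tested.

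Other Paneth cell products were compared as a list of 20 genes, of which 19 were measured and 7 were detected in both libraries. They summed to 141.5 TPM in replicate 1 and 463.2 TPM in replicate 2. Lyz2, which is also a macrophage marker, was 1 of the 7 and made up 49.8 and 56.8 TPM of these sums. The gap lay mostly in the colipase gene Clps, which the pancreas also makes in quantity, with 16.6 TPM in replicate 1 and 286.7 TPM in replicate 2. Clps, the mucosal scavenger receptor gene Dmbt1, with 18.7 and 42.2 TPM, and the stress-response gene Nupr1, with 5.27 and 21.6 TPM, were the 3 past the difference rule. Fgfbp1, a growth factor carrier, was at 22.8 TPM in replicate 1 and 22.4 TPM in replicate 2. The lectin gene Reg3b was near the threshold, with 0.98 and 1.29 TPM, and Reg3a, Mptx2 and Defb1 had 0 counts in both libraries. As among the 10 members, the list held both detected genes and genes with no reads.

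**Figure D5:**
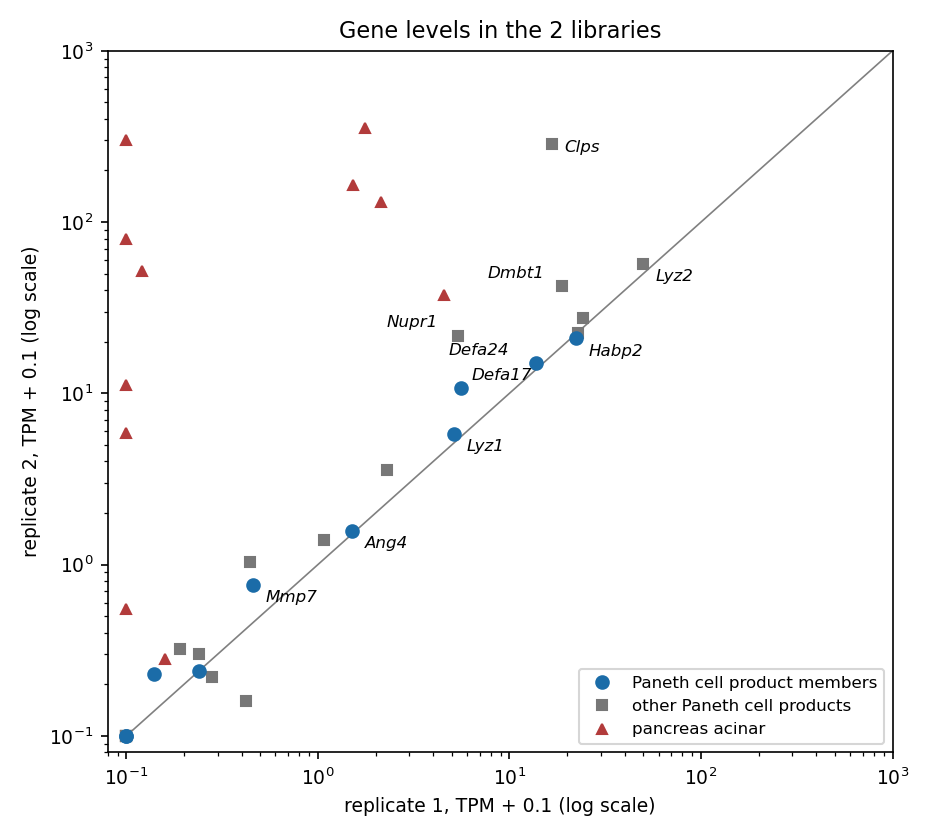
TPM + 0.1 of each gene in replicate 1 (horizontal axis, log scale) and replicate 2 (vertical axis, log scale) for the 10 members (circles), the other Paneth cell products (squares) and the pancreas acinar markers (triangles), with the line of equality. Among the members, Defa17, at 5.48 and 10.6 TPM, Mmp7, at 0.36 and 0.66 TPM, and Itln1, at 0.04 and 0.13 TPM, lie above the line. The other members lie near it, while the acinar markers past the difference rule lie far above it.

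Factors of the Paneth lineage and the crypt niche were detected for 17 of 22 genes, with sums of 1089.0 TPM in replicate 1 and 1061.4 TPM in replicate 2 and 0 past the difference rule. Bhlha15, a factor of secretory cells that pancreas acinar cells also express, was at 0.15 TPM in replicate 1 and 3.03 TPM in replicate 2, with intervals that did not overlap, and was outside the rule because its mean TPM was under 5. The highest were Ctnnb1, the beta-catenin gene of Wnt signalling, with 409.4 and 378.1 TPM, Cd24a, a surface marker of Paneth cells in the adult, with 225.9 and 198.8 TPM, and Xbp1, a regulator of secretory capacity, with 132.2 and 157.5 TPM. Sox9, a transcription factor that adult Paneth cells require, was at 30.7 and 35.2 TPM. Atoh1, which sets the secretory lineage, was at 2.88 and 4.09 TPM, and Gfi1, which acts after it, at 0.54 and 1.08 TPM. Spdef, a factor of goblet and Paneth cell maturation, was at 8.16 and 10.2 TPM. Wnt3, the Wnt ligand that Paneth cells supply to stem cells, was at 0.36 TPM in replicate 1 and 0.24 TPM in replicate 2, under the threshold in both.

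Markers of the labelled tissue were present. All 7 epithelial markers were detected, with sums of 1513.9 TPM in replicate 1 and 1653.9 TPM in replicate 2, led by Epcam, Krt8 and Cldn7, and Defa24 stood at 2.66% and 2.95% of Epcam. Among enterocyte markers, for the absorptive cells, 4 of 6 were detected, with sums of 142.2 and 176.6 TPM, led by Fabp2, Anpep and Alpi, while the sucrase gene Sis had 0 counts in both libraries. All 6 mesothelial markers were detected, with sums of 407.4 and 413.2 TPM, led by Krt19, Upk3b and Upk1b.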

How the data were processed

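Total RNA longer than 200 nucleotides (10 ng) of mouse embryonic day 14.5 intestine was sequenced as 2 libraries, both in 1 group named by the labels. Per the submitters' processing notes, mm10 and GENCODE M4 were used. The aligner, quantifier and strand setting were not given in the sources used here. Per gene and transcript, expected counts were deposited by the authors, with TPM over all features, including 96 spike-ins. The deposited tables also give posterior means and, taken here as scores, the posterior SD of counts and the interval bounds, whose level is not stated. The percent share of each isoform was deposited by the authors in the transcript tables. Columns with no sample numbered 0.

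Symbols, biotypes, coordinates and coding sequences came from GENCODE M21 on GRCm38 (42462 of 43346 identifiers matched). RefSeq names came from a GRCm38 table. Windows were matched exactly on the forward strand. Scripts used Python 3.11.15, pandas 2.3.3 and numpy 2.4.6. R 4.3.3 with edgeR 4.0.16 and DESeq2 1.42.0 gave scaling factors only, from expected counts rounded to whole numbers. The rules were tested on simulated data.

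No test between groups exists for 1 group. Values are the mean ± SD of 2 libraries, and differences are log2(TPM + 1) of replicate 1 minus replicate 2. The added 1 understates the change of low genes. Depth was 34504419 and 34042802 estimated counts over all features in replicates 1 and 2. Floors cover counting error only. The intervals also widen where reads are shared between genes, and neither covers the spread between libraries. The members and the 9 gene lists (99 entries) were chosen with earlier results of these data known. Named genes were all members, other alpha-defensin genes at a TPM of at least 1 in either library, and of each list the 3 highest and those past the difference rule. A gene that this rule names is not reported here. Any further gene was picked with its values in view. The alternatives tried were other thresholds, posterior mean TPM, rescaled TPM, a pseudocount of 0.1 and leaving out each library. The sum of Defa17 and Defa3 was added after the values were seen.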

Additional observations from a re-analysis of the deposited data

How the results depend on the processing

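The number of members detected, 5 at a TPM of at least 1, was 7 at 0.1 and 4 at 5, and 5 without either library. It was 5 with a count of at least 10 or with posterior mean TPM, and 4 with the lower interval bound at the threshold, where Ang4 dropped out. Detected alpha-defensin genes numbered 3, with 4 and 2 at the same TPM thresholds, 2 by count or lower bound, and 3 without either library. Members that differed between the libraries numbered 0 under all 8 alternatives, whereas genes that differed numbered 56, but 116 with no filter on low values and 102 with a mean TPM of at least 1. The other 6 alternatives gave 52 to 81. Of 40 alternative levels of members 31 moved by no more than the SD of the 2 libraries. Leaving out a library always stays within that SD, so those alternatives are no check. Of 51 alternative differences 42 moved by no more than the difference itself divided by the square root of 2. The differences of Defa5 and Pla2g2a, with no counts, could not move. The difference of Ang4, -0.04, was 0.02 with spike-in scaling. Rescaling over nuclear protein-coding genes gave 28.3 TPM for Habp2, 18.8 for Defa24 and 7.01 for Lyz1. The causes of these shifts were not tested. The scalings moved replicate 2 by 0.05 (TMM), 0.04 (DESeq2) and -0.09 (spike-ins) in log2. No paired analysis was possible because the libraries form 1 group. Depth limits Defa30, Itln1, Defa5 and Pla2g2a, which were at or below the floor of 3 counts.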
